A study of Mus musculus with 8 samples.

Results

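The interleukin-1 (IL-1) family genes described here are 10 rows of the deposited count table, chosen by gene symbol: the ligands Il1a, Il1b, Il18 and Il33, the receptor antagonist Il1rn, the receptor chains Il1r1, Il1rap and Il1rl1, the decoy receptor Il1r2, and Il18bp, which encodes a secreted protein that binds IL-18. All 10 were found among 24411 gene names, and all 10 had enough reads to be tested. RNA came from whole aortas of 8 ApoE(-/-) mice, which lack apolipoprotein E and form atherosclerotic plaques. All 8 carried caIKK2(+/+), a constitutively active IKK2 with EGFP behind a loxP-flanked stop signal, all 8 received tamoxifen (1 mg per 20 g of body weight) and all 8 ate a Western-type diet for 12 weeks. The 5 caIKK2EC mice also carried BMXCreERT2(+/-), an inducible Cre recombinase active in arterial endothelium, and the 3 Control mice were littermates without it, BMXCreERT2(-/-). Cre is thus present in caIKK2EC mice alone, and an effect of Cre with tamoxifen cannot be told apart from an effect of active IKK2. The mice were 18 or 19 weeks old, and the sources used here do not state whether IKK2 was switched on early or late in their disease. All were female except Control 3, which at 19 weeks was also the oldest Control, so sex and age cannot be told apart from this library among Controls.

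IL-1α and IL-1β bind the receptor IL-1R1, which then recruits the shared accessory chain encoded by Il1rap and signals through MyD88 and IRAK kinases to NF-κB, the factor that IKK2 activates. IL-33 does the same through ST2, the product of Il1rl1, and IL-18 uses its own pair of receptor chains. The family also encodes its own brakes: an antagonist that occupies IL-1R1, a decoy receptor without a signalling domain, and a binding protein for IL-18. IL-1β is a known driver of atherosclerotic inflammation, is made mainly by myeloid cells and is cut to its active form by caspase-1 in the inflammasome, while IL-1α and IL-33 are held in the cell and act as alarm signals when released.

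Total counts were 23461655 to 30808502 per library. The names of the count columns hold a 7 for all Controls and caIKK2EC 1, and an 8 for the remaining caIKK2EC libraries. This number is read here as the sequencing lane, which the names do not spell out. A comparison within a lane so read has 1 caIKK2EC library. Levels are given in CPM (counts divided by the TMM-scaled library total and given per 1e6). Ikbkb, which encodes IKK2, lay at 65.4 to 87.0 CPM in Control and at 91.6 to 102 CPM in caIKK2EC aortas, with no overlap. Every caIKK2EC library lay above every Control in 7.01% of all genes. The low end was Control 3, and Controls 1 and 2 were at 86.8 and 87.0 CPM. The sources used here do not say whether reads of the transgene count towards Ikbkb. Smooth muscle markers of the aortic wall were all present, and their summed level was 18100 to 36300 CPM in Control and 9900 to 20800 CPM in caIKK2EC libraries, with Control 3 the highest. DESeq2 called 1 of 6 lower (Myh11), against 1.47% of all genes, and 0 of 6 without Control 3.

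The genes lie in clusters. On chromosome 2 Il1a (129299610 to 129309972, minus strand, GRCm38) and Il1b (129364570 to 129371139, minus strand) are 54.6 kb apart, and Il1rn (24336853 to 24351494, plus strand) sits far from both. On chromosome 1 Il1r2 (40074079 to 40125231), Il1r1 (40225080 to 40317257) and Il1rl1 (40429570 to 40465415) follow each other on the plus strand, with Il18r1 beginning 0.137 kb after Il1rl1. Il1rap is on chromosome 16 (26581704 to 26730117, plus strand), Il18 on chromosome 9 (50554827 to 50581840, plus strand), Il18bp on chromosome 7 (102014885 to 102018690, minus strand) and Il33 on chromosome 19 (29925114 to 29960718, plus strand).

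RefSeq windows around the transcription start (250 bases before to 50 after, GRCm38.p6) were held for all 10 genes, 15 windows in all since some genes have several starts. Those of 4 genes are shown up to the start (7 exonic bases left off in Il1rn) because they hold the motifs searched for in genes of the IL-1 receptor branch. Capitals mark TATAAA, the AP-1 site TGACTCA or the NF-κB consensus, on either strand. The windows are chr2:129309973-129310222 (minus strand) for Il1a, chr2:129371140-129371389 (minus strand) for Il1b, chr2:24336610-24336852 (plus strand) for the first start of Il1rn, and chr1:40266336-40266585 (plus strand) for the second start of Il1r1, each written 5′ to 3′ on the strand of the gene.
Il1a: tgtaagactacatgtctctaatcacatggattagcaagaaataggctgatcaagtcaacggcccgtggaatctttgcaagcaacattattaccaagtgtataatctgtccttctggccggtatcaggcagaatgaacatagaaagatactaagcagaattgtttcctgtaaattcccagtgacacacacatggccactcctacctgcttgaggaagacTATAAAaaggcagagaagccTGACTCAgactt
Il1b: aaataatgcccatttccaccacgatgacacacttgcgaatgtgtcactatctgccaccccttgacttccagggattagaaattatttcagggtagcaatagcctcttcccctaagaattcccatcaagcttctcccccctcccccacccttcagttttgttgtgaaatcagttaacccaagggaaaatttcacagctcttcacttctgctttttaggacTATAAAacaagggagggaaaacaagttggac
Il1rn: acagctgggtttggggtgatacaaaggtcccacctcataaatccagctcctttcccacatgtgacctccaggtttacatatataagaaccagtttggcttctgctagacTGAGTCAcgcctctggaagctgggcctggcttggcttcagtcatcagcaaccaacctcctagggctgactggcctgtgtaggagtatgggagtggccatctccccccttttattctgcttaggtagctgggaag
Il1r1: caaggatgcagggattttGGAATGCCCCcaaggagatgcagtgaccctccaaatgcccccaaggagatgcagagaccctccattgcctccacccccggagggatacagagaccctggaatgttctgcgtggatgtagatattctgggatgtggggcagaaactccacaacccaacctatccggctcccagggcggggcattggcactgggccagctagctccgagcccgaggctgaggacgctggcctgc

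The 2 neighbouring ligand genes hold TATAAA at nearly the same place, 27 to 32 bases before the start in Il1a and 26 to 31 bases before it in Il1b. This place is not particular to them, since Il33, on another chromosome, holds TATAAA 24 to 29 bases before its second start. TATAAA was found in 6 of the 15 windows and in 13.6% of all 32851 windows. The match counted for Il1rn lies 14 to 19 bases after a start, on the other strand. TGACTCA was in 2 windows, of Il1a and Il1rn, and in 5.20% of all windows. The NF-κB consensus was in 1 window, 223 to 232 bases before the second start of Il1r1, and in 8.46% of all windows. These are matches of letters within 300 bases and not measured binding sites.

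Comparing caIKK2EC with Control asks whether continuous IKK2 activity in arterial endothelium changes the family's RNA in the diseased aorta. The log2 fold change was above 0 for 10 of 10 genes, from 0.22 for Il1rap to 0.91 for Il1b, with a median of 0.60 against -0.02 over the 14679 genes tested, of which 47.4% lay above 0. None of the 10 passed the quasi-likelihood test of edgeR at an adjusted p of 0.05, where 0% of all genes passed in either direction and the lowest adjusted p was 0.107. At an unadjusted p under 0.05, 4 of 10 were higher (Il1b, Il1rn, Il1r1 and Il18), against 9.66% of all genes, and 0 were lower, against 7.47%. At an adjusted p of 0.05 DESeq2 called 0 of 10, against 4.49% of all genes higher and 1.47% lower. The authors' deposited table likewise holds none of the 10 among its calls at 0.05, which are 3.91% of its genes higher and 1.3% lower. In 1 gene, Il1r1, every caIKK2EC library lay above every Control, which held for 7.01% of all genes, and in 0 did every one lie below, which held for 3.22%. Without Control 3 all 10 log2 fold changes stayed above 0 and the median was 0.47. In that edgeR fit 2 genes had an unadjusted p under 0.05 (Il1rn and Il1r1), against 7.67% of all genes higher.

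**Figure D1:**
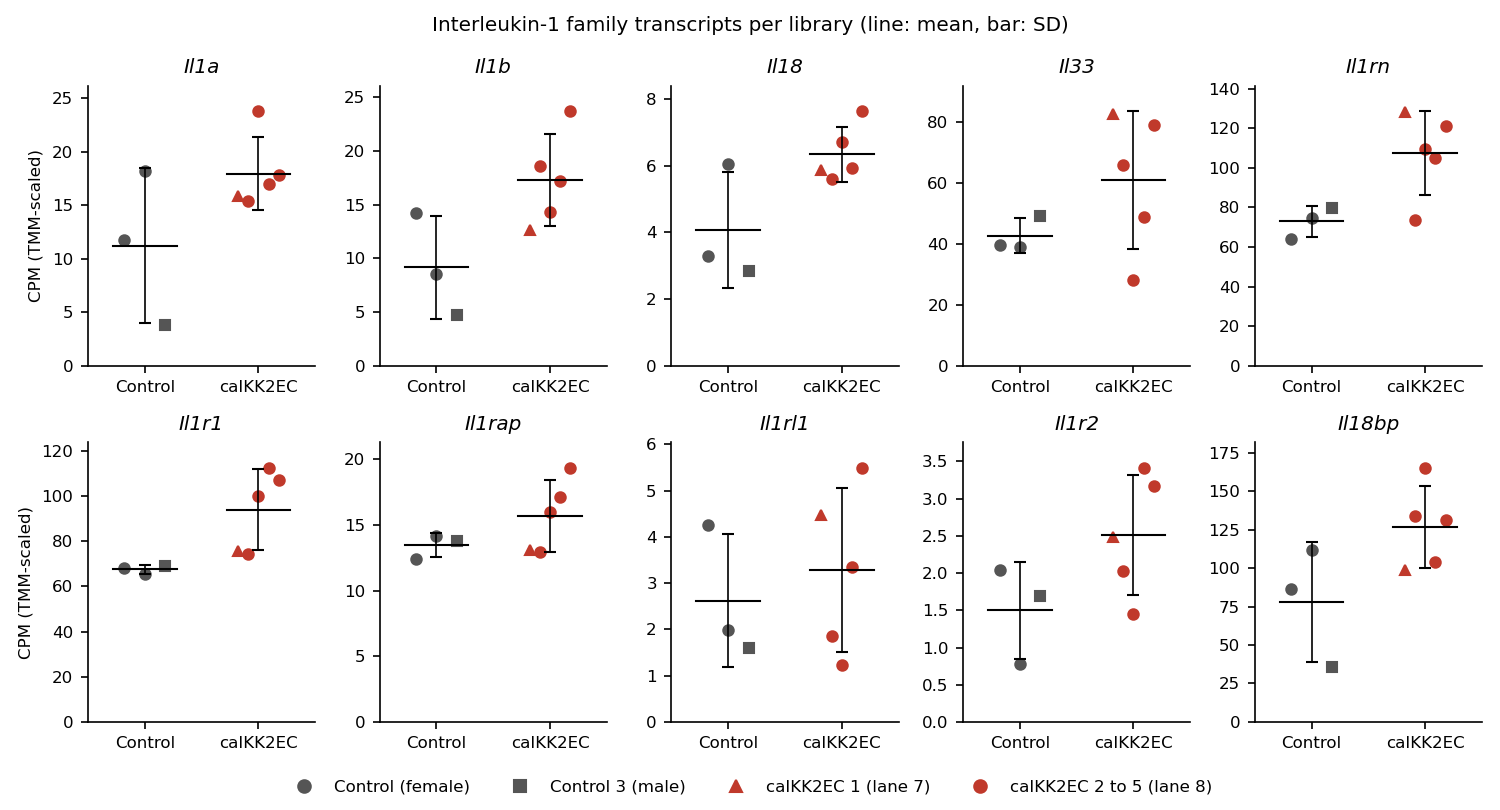
CPM of the 10 genes (vertical axes, each from 0) in the 3 Control (grey) and 5 caIKK2EC (red) libraries, with the mean and SD of each group. Il1r1 is the gene with no overlap between the groups, and Control 3, the male (square), is the lowest of all 8 libraries for Il1a, Il1b, Il18 and Il18bp.

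Il1b, the ligand with the largest fold change, was at 14.2, 8.54 and 4.73 CPM in Controls 1, 2 and 3 and at 12.6, 18.6, 14.3, 17.2 and 23.7 CPM in caIKK2EC 1 to 5. The 4 caIKK2EC libraries of lane 8 lay above all Controls, and caIKK2EC 1 lay below Control 1. Means were 9.15 ± 4.76 CPM (SD, n = 3) for Control and 17.3 ± 4.29 CPM (SD, n = 5) for caIKK2EC. edgeR put the log2 fold change at 0.91 (SE 0.33, adjusted p = 0.207), and the exact permutation test, two-sided here and below, gave p = 0.0357, where the smallest that 3 and 5 libraries allow is 0.0179. The log2 fold change was 0.61 without Control 3, 1.39 without Control 1 and 0.46 with lane as a covariate.

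Il1a, the neighbouring alarm cytokine gene, was at 11.8, 18.2 and 3.76 CPM in Controls 1, 2 and 3 and at 15.9, 15.4, 23.8, 17.0 and 17.9 CPM in caIKK2EC 1 to 5. Control 2 lay above 4 of the 5 caIKK2EC libraries, and the Controls spanned a 4.84-fold range against 1.55-fold in caIKK2EC. The exact permutation test gave p = 0.0893, and the log2 fold change in edgeR, 0.67 (SE 0.39, adjusted p = 0.416), was 0.26 without Control 3 and 1.22 without Control 2. The antisense genes Gm14023 and Il1bos overlap 11.3% of the exonic length of Il1a and 1.31% of that of Il1b. They had at most 15 and 7 counts in any library, so few reads were assigned to them.

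Il18, which encodes a cytokine that drives interferon-γ production by lymphocytes, was at 3.30, 6.06 and 2.84 CPM in Controls 1, 2 and 3 and at 5.87, 5.60, 6.70, 5.94 and 7.63 CPM in caIKK2EC 1 to 5. The caIKK2EC libraries were close together, and Control 2 lay inside their range. The means were 4.07 ± 1.74 CPM (SD, n = 3) and 6.35 ± 0.826 CPM (SD, n = 5), and the exact permutation test gave p = 0.0714. In edgeR the log2 fold change of 0.64 (SE 0.27, adjusted p = 0.273) was 0.44 without Control 3 and 1.07 without Control 2.

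Il33, an alarm cytokine gene of stromal and endothelial nuclei, varied most among caIKK2EC mice of the 4 ligands. It was at 39.7, 39.1 and 49.3 CPM in Controls 1, 2 and 3 and at 82.9, 65.8, 28.1, 48.9 and 78.9 CPM in caIKK2EC 1 to 5. Of the caIKK2EC libraries 3 lay above all Controls, caIKK2EC 4 lay inside their range and caIKK2EC 3 lay below it. The coefficient of variation was 37.1% in caIKK2EC and 13.4% in Control, and the exact permutation test gave p = 0.339. In edgeR the log2 fold change was 0.51 (SE 0.30, adjusted p = 0.419). It was 0.70 without caIKK2EC 3, 0.63 without Control 3 and 0.96 with lane as a covariate.

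Il1rn, the receptor antagonist, had the smallest unadjusted p of the 10 genes. It was at 64.3, 74.9 and 79.6 CPM in Controls 1, 2 and 3 and at 128, 73.7, 110, 105 and 121 CPM in caIKK2EC 1 to 5, so that caIKK2EC 2 lay inside the Control range and the other 4 lay above it. The means were 72.9 ± 7.83 CPM (SD, n = 3) and 108 ± 21.0 CPM (SD, n = 5), and p was 0.0893 in the exact permutation test. In edgeR the log2 fold change was 0.56 (SE 0.17, adjusted p = 0.165). Without caIKK2EC 2 it was 0.67 and passed (edgeR adjusted p = 0.0369), in a fit that called 359 genes. The adjusted p over 17 alternatives ran from 0.0369 to 0.552. Unlike Il1a, Il1b, Il18 and Il18bp, Il1rn was highest among Controls in Control 3, and its log2 fold change was 0.63 without that library. In the authors' deposited table its log2 fold change was 0.56 with an adjusted p of 0.0586.

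Il18bp, the IL-18 binding protein gene, was at 86.2, 112 and 35.5 CPM in Controls 1, 2 and 3 and at 98.8, 134, 165, 104 and 131 CPM in caIKK2EC 1 to 5. Control 3 was far below all other libraries, and Control 2 lay above caIKK2EC 1 and 4. The exact permutation test gave p = 0.0536, and the log2 fold change in edgeR, 0.70 (SE 0.32, adjusted p = 0.303), was 0.35 without Control 3, 1.08 without Control 2 and 0.34 with lane as a covariate. Exons of Numa1 on the other strand cover 2.64% of its exonic length.

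Il1r1, the signalling receptor, was even among Controls, at 68.0, 65.4 and 69.0 CPM, and higher in every caIKK2EC library, at 75.7, 74.4, 100, 113 and 107 CPM in caIKK2EC 1 to 5. The means were 67.4 ± 1.87 CPM (SD, n = 3) and 93.9 ± 17.8 CPM (SD, n = 5), with p = 0.0357 in the exact permutation test. In edgeR the log2 fold change was 0.48 (SE 0.16, adjusted p = 0.181). The caIKK2EC libraries formed a lower pair, 1 and 2, and a higher set, 3 to 5. The difference was 0.17 within lane 7, where caIKK2EC 1 is the only caIKK2EC library, and 0.17 with lane as a covariate. Leaving out each library in turn gave 0.42 to 0.56.

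Il1rap, the accessory chain that IL-1 and IL-33 receptors share, was at 12.5, 14.2 and 13.8 CPM in Control and at 13.1, 12.9, 16.0, 17.2 and 19.4 CPM in caIKK2EC libraries. As with Il1r1, caIKK2EC 3 to 5 were the higher set, but here caIKK2EC 1 and 2 were level with Control. The exact permutation test gave p = 0.268, and the log2 fold change in edgeR, 0.22 (SE 0.16, adjusted p = 0.524), was -0.04 with lane as a covariate, and caIKK2EC 1 differed from the Control mean by -0.03.

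Il1rl1 and Il1r2 had few reads, 29 to 170 and 21 to 98 counts per library. Il1rl1, which encodes both the membrane and the soluble form of ST2, was at 4.26, 2.00 and 1.61 CPM in Control and at 4.47, 1.85, 1.24, 3.35 and 5.50 CPM in caIKK2EC, with both groups spread alike. Its log2 fold change in edgeR, 0.32 (SE 0.51, adjusted p = 0.791, with p = 0.732 in the exact permutation test), was 0.07 without Control 3, 0.88 without Control 1 and 0.76 with lane as a covariate. Counts per gene do not separate the membrane form of ST2 from the soluble form, which acts as a decoy for IL-33. Il1r2, the decoy for IL-1, was at 2.04, 0.776 and 1.70 CPM in Control and at 2.49, 2.02, 1.45, 3.42 and 3.17 CPM in caIKK2EC. Of these, 3 caIKK2EC libraries lay above all Controls. The exact permutation test gave p = 0.143, and the log2 fold change in edgeR, 0.74 (SE 0.41, adjusted p = 0.381), was 0.45 without Control 2 and 1.05 without Control 1.

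**Figure D2:**
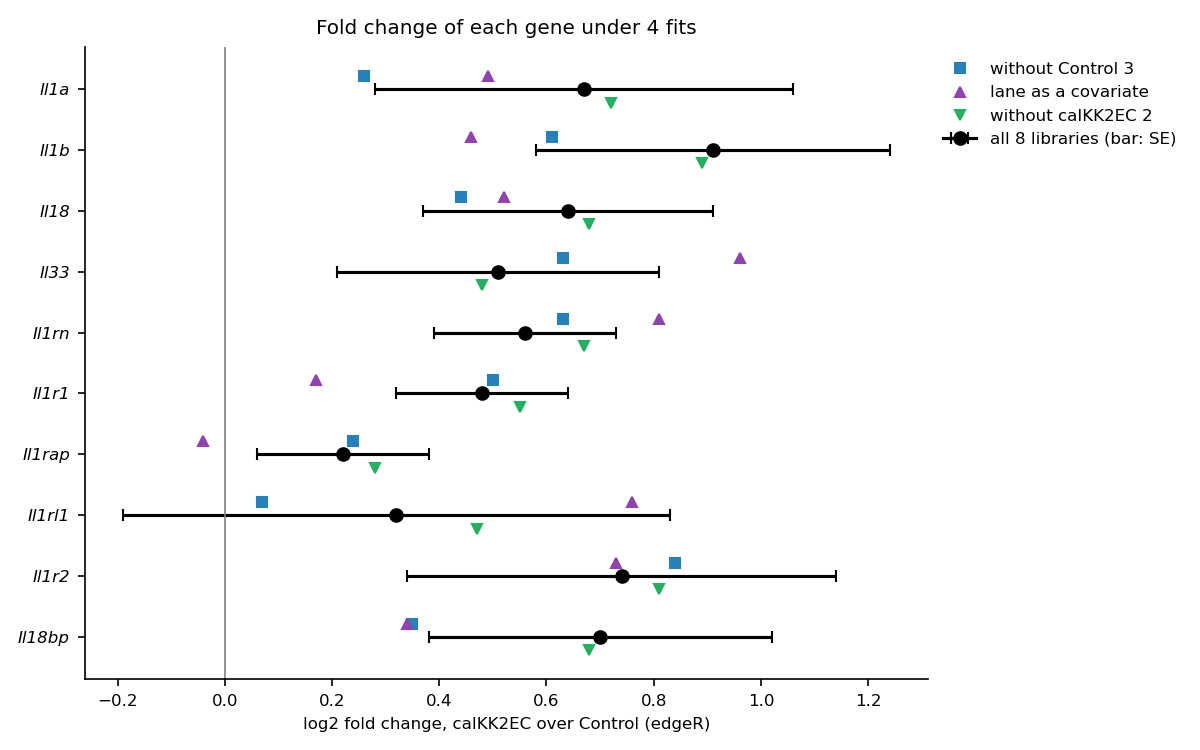
Log2 fold change of caIKK2EC over Control (horizontal axis) for each gene, from all 8 libraries with its SE (black) and from 3 other fits. Without Control 3, Il1a goes from 0.67 to 0.26 and Il18bp from 0.70 to 0.35, while Il1rn and Il33 move up to 0.63. Lane as a covariate takes Il1rap to -0.04 and Il1r1 to 0.17.

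Markers of leukocytes differed by cell type. DESeq2 called 7 of 8 macrophage markers higher, 3 of 7 tested dendritic cell markers, 2 of 7 neutrophil markers, 1 of 6 T and NK cell markers, 0 of 4 monocyte markers and 0 of 5 B cell markers, against 4.49% of all genes. Without Control 3 the calls were 6, 3, 1, 0, 0 and 0 in the same order, against 2.37% of all genes. Summed over the 8 macrophage markers the level was 1410 to 2370 CPM in Control and 3290 to 3890 CPM in caIKK2EC libraries. For 7 of the 8 every caIKK2EC library lay above every Control, which held for 7.01% of all genes. The complement genes C1qa (429 and 822 CPM) and C1qb (672 and 1260 CPM) were the most abundant of these markers. Dendritic cell markers summed to 215 to 296 and 347 to 471 CPM, and the 9 neutrophil markers found to 26.1 to 45.8 and 52.9 to 68.9 CPM. The dendritic cell sum was mostly Itgax (229 and 382 CPM), and Zbtb46, the next most abundant, was at 9.31 and 10.2 CPM. All 7 tested dendritic cell markers had a log2 fold change above 0. Of the neutrophil markers Csf3r had means of 18.5 and 35.2 CPM and Mmp8 of 8.37 and 15.1 CPM, while S100a8 was at 3.12 and 3.72 CPM. Other neutrophil markers had lower means in caIKK2EC: Retnlg was at 0.605 and 0.228 CPM (edgeR adjusted p = 0.198) and Ngp at 0.983 and 0.285 CPM. For Retnlg every caIKK2EC library lay below every Control, which held for 3.22% of all genes. Monocyte markers summed to 46.1 to 66.0 CPM in Control and 51.2 to 113 CPM in caIKK2EC, and T and NK cell markers to 21.3 to 59.8 and 55.6 to 99.5 CPM. The T and NK cell sum was mostly Cd4 (35.8 and 69.7 CPM), and Cd8a, the next most abundant, was at 3.23 and 2.6 CPM. Of the 6 tested T and NK cell markers 5 had a log2 fold change above 0, with a median of 0.41. Without Control 3 it was 3 of 6, with a median of 0.10. Cd3d, Cd3e and Cd3g were at 1.58, 1.84 and 1.54 CPM in Control and at 1.69, 2.11 and 2.39 CPM in caIKK2EC, and none was called. B cell markers summed to 3.85 to 11.9 and 2.95 to 10.7 CPM, with a median log2 fold change of -0.77 and 1 of 5 above 0. No marker of these lists was at 0 in all libraries. More cells of a type and more RNA per cell cannot be told apart in whole tissue, and the part of these cells in the differences of Il1b, Il1rn, Il18 and Il18bp was not tested. Within Control 3 the macrophage sum, at 1410 CPM, was the lowest of all libraries, as were Il1a, Il1b, Il18 and Il18bp. The macrophage list was not alone in this. Control 3 was also the lowest library for the dendritic cell (215 CPM), neutrophil (26.1 CPM) and T and NK cell (21.3 CPM) sums. The same held for endothelial (1540 CPM) and lymphatic endothelial markers (88.1 CPM), while smooth muscle markers were highest there.

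Cells known to respond to IL-33 were examined beside Il33 and Il1rl1. Mast cell markers, for a cell rich in ST2, summed to 40.5 to 60.2 CPM in Control and 44.1 to 77.4 CPM in caIKK2EC, and the median log2 fold change of 7 tested markers was 0.21, or -0.07 without Control 3. Markers of type 2 lymphoid and regulatory T cells summed to 77.4 to 92.5 and 50.5 to 75.5 CPM. Every caIKK2EC sum lay below every Control sum, which held for 3.22% of single genes. The sum was mostly Rora (75.0 and 56.9 CPM), which other cells express as well and whose groups overlapped. Gata3 also had a lower mean in caIKK2EC (6.88 and 5.59 CPM), while Il2ra had a higher one (2.44 and 3.47 CPM). Among genes with fewer reads, the mean of Foxp3 was higher and those of Il5 and Areg were lower. Il13 was at 0 in all 8 libraries and Il5, Areg and Foxp3 were too low to be tested. Endothelial markers summed to 1540 to 3070 and 2540 to 3190 CPM, and fibroblast markers to 5980 to 8200 and 8100 to 10100 CPM. Adipocyte markers spanned 1160 to 1540 CPM in Control and 197 to 2640 CPM in caIKK2EC, mesothelial markers 88.7 to 127 and 26.9 to 165 CPM, and lymphatic endothelial markers 88.1 to 117 and 113 to 200 CPM. Their part in the spread of Il33 and Il1rl1 was not tested.

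Compared per exonic length, the inhibitor genes Il18bp and Il1rn were among the 3 highest of the family, and the decoy receptor gene Il1r2 was 9th of 10. In Control aortas Il18bp was at 25.8 CPM per kb of exon, followed by Il33 (14.8), Il1rn (13.2), Il1r1 (10.6), Il1a (5.70), Il1b (4.80), Il18 (3.95), Il1rap (1.19), Il1r2 (0.788) and Il1rl1 (0.380). The order of the means was the same in caIKK2EC aortas, from 41.9 CPM per kb for Il18bp and 21.1 for Il33 to 0.476 for Il1rl1. In Control the library ranges overlapped between Il18bp and Il33, Il33 and Il1rn, Il1a and Il1b, Il1b and Il18, and Il1r2 and Il1rl1. The step from Il18 to Il1rap was free of overlap in both groups. The length is that of all annotated exons together, 11.4 kb for Il1rap and 6.89 kb for Il1rl1, which lowers the level of genes with long exons that are rarely used.

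**Figure D3:**
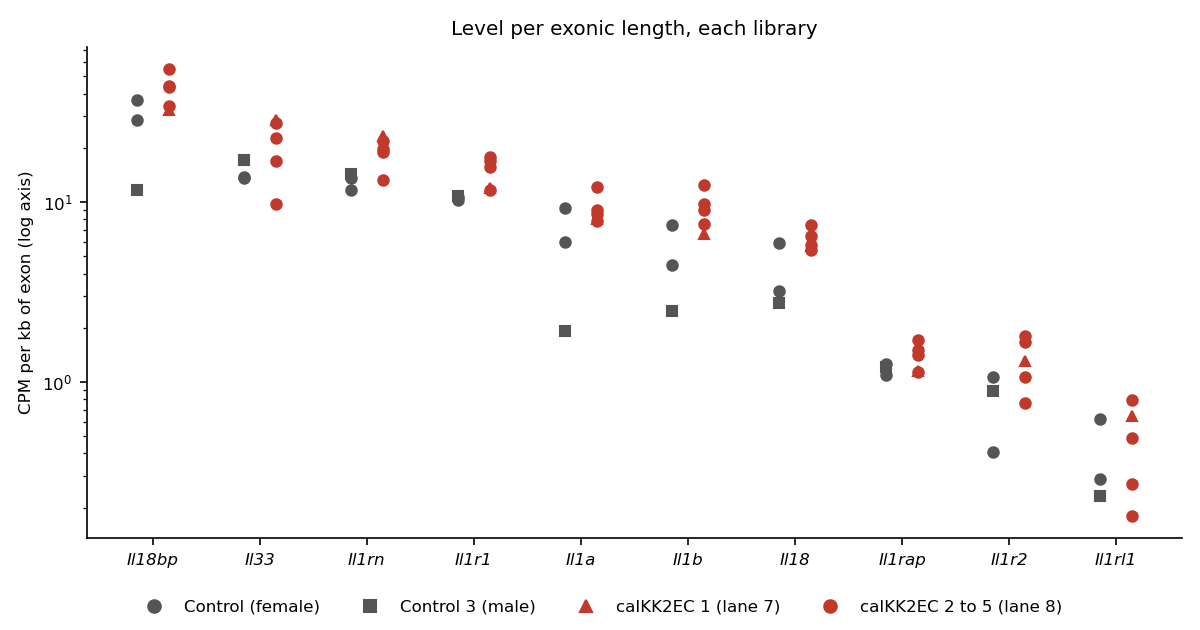
CPM per kb of annotated exon (vertical log axis) of the 10 genes in every library, ordered by the Control mean. Il18bp is highest in both groups, at a mean of 25.8 in Control and 41.9 in caIKK2EC, and Il1rl1 lowest, at 0.380 and 0.476.

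Each brake was set against its partner inside a library, which removes the scaling between libraries. The log2 ratio of Il1rn to Il1b reads was 2.18, 3.13 and 4.07 in Controls 1, 2 and 3 and 3.34, 1.99, 2.93, 2.61 and 2.35 in caIKK2EC 1 to 5. The groups overlapped widely, and the difference of the means was -0.48, or -0.01 without Control 3. The ratio of Il1r2 to Il1r1 was -5.58 ± 0.69 (SD, n = 3) in Control and -5.26 ± 0.47 (SD, n = 5) in caIKK2EC, a difference of 0.32 that was -0.07 without Control 2. The ratio of Il18bp to Il18 was 4.18 ± 0.54 (SD, n = 3) and 4.30 ± 0.28 (SD, n = 5), a difference of 0.12 that was -0.15 without Control 3. In each ratio the groups overlapped and the difference was smaller than the spread between libraries. These ratios are a description and were not tested.

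**Figure D4:**
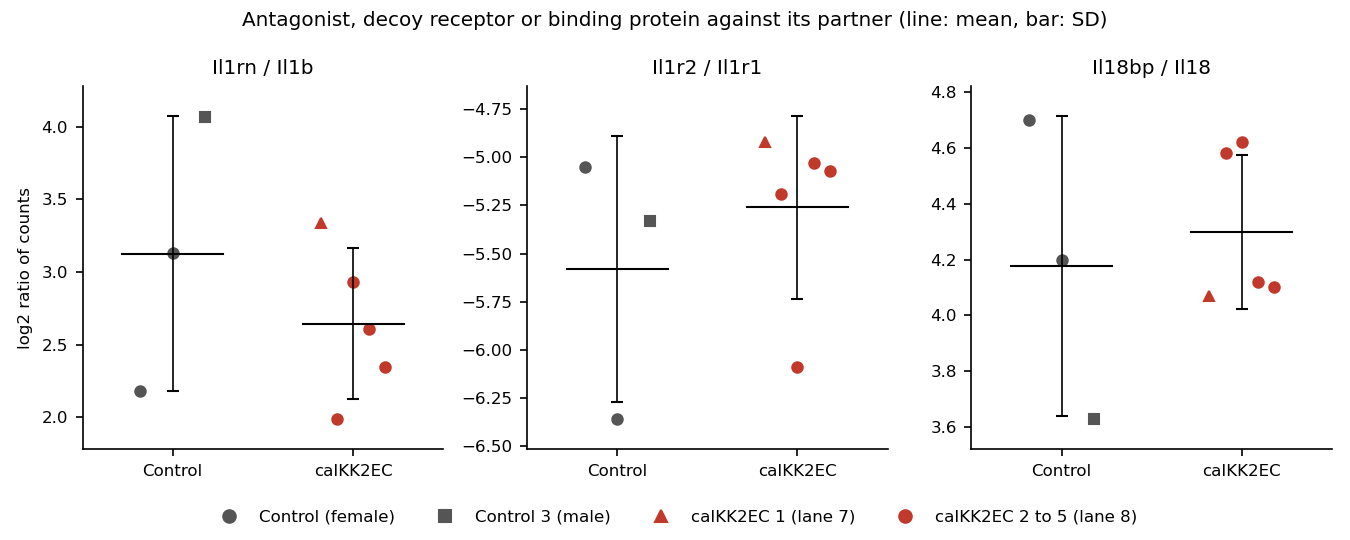
Log2 ratio of counts (vertical axes, not from 0) of Il1rn to Il1b, Il1r2 to Il1r1 and Il18bp to Il18 in each library, with the mean and SD of each group. The groups overlap in all 3 panels, and for Il1rn to Il1b the Controls alone run from 2.18 to 4.07.

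Pairs of the 10 genes were compared over the 8 libraries. Of the 45 pairs, 43 had a positive Pearson r of log2 CPM (median 0.44), and 0 had a Benjamini-Hochberg adjusted exact permutation p under 0.05. The highest was between Il1a and Il18bp (r = 0.968, exact permutation p = 0.00144, adjusted p = 0.0554, Spearman rho = 0.738, exact permutation p = 0.0458, adjusted p = 0.374). It was 0.633 without the 2 libraries farthest from the median of Il1a, so it rests in part on them, and 0.951 over deviations from the group means. Between Il1a and Il18 r was 0.866 (exact permutation p = 0.00322, adjusted p = 0.0554) and rho 0.929 (exact permutation p = 0.00223, adjusted p = 0.100), with r at 0.942 without the 2 farthest libraries and 0.789 over deviations. Between the neighbours Il1a and Il1b r was 0.743 (exact permutation p = 0.0674, adjusted p = 0.309) and rho 0.286 (exact permutation p = 0.501, adjusted p = 0.751), and without the 2 farthest libraries r was -0.013, with 0.566 over deviations. Il1r1 and Il1rap had r = 0.875 (exact permutation p = 0.00925, adjusted p = 0.104) and rho = 0.667 (exact permutation p = 0.0831, adjusted p = 0.374), with r at 0.711 without the 2 farthest libraries and 0.883 over deviations. The lowest r over the 8 libraries was -0.078, between Il1a and Il33. Values of r over all libraries include the difference between the groups, which was above 0 for all 10 genes. Over deviations from the group means more pairs were below 0. Il1r2 and Il18 were lowest, at -0.575 against 0.129 over all libraries, and Il1b and Il1rn were at -0.395 against 0.36.

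Among 12093 genes whose mean log2 CPM reached 1 and whose symbol is an ordinary one, those most like each family gene over the 8 libraries were listed by Pearson r, as a description chosen for its size. Il18bp was most like Icam1 (r = 0.996), which encodes an adhesion molecule for leukocytes, Clec7a (0.986), the macrophage receptor dectin-1, and Plk3 (0.985). Il1a was most like Tmem140 (0.998), Tnfaip2 (0.993), an NF-κB target, and Ccdc148 (0.988). Without the 2 libraries farthest from the median r was 0.980 for Icam1, 0.881 for Clec7a, 0.963 for Tmem140 and 0.918 for Tnfaip2. Il1b was most like Zfp850 (0.977), P2ry12 (0.974), a receptor for ADP, and Rerg (0.965). Il18 was most like Tdrd7 (0.985), Igf2bp2 (0.981) and Rasgef1a (0.975), of which the last was at 0.648 without the 2 farthest libraries. Il1rn was most like Xdh (0.985), the xanthine dehydrogenase gene, the interferon-induced gene Oas3 (0.974) and Smarcd2 (0.960). Il33 was most like C3 (0.927), the central complement gene, Adal (0.919) and Fetub (0.911). Among the receptors, Il1r1 was most like Supt16 (0.992), Sema6d (0.981) and Tug1 (0.980), and Il1rap like Sdad1 (0.967), Tnpo3 (0.962) and Atad5 (0.958). Il1r2 was most like Cyp7b1 (0.960), Disp1 (0.958) and the endothelin receptor gene Ednra (0.947), and Il1rl1 like Zfp953 (0.973), the scavenger receptor gene Cd163l1 (0.960) and Dgkq (0.955).

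Among the other ligands and receptors of the family, the receptor chains Il18rap, Il18r1 and Il1rl2 had higher means in caIKK2EC aortas, and the IL-36 ligands were near or at 0. Of 11 genes 5 had enough reads, 0 passed in edgeR and DESeq2 called 2 as higher and none as lower, against 4.49% of all genes higher. Il18rap, the signalling chain of the IL-18 receptor, was at 1.15, 0.887 and 0.826 CPM in Control and at 2.52, 1.85, 2.86, 4.38 and 3.20 CPM in caIKK2EC, with no overlap. The means differed 3.10-fold, or 1.63 on the log2 scale (SE 0.35), with adjusted p-values of 0.109 in edgeR and 0.000929 in DESeq2. Without Control 3 it was 1.54 and DESeq2 called it as well (adjusted p = 0.0158). Il1rl2, the IL-36 receptor, was at 1.33, 2.66 and 2.16 CPM in Control and at 4.89, 2.19, 6.06, 5.38 and 5.21 CPM in caIKK2EC. Here edgeR gave 1.21 on the log2 scale (SE 0.37, adjusted p = 0.160) and DESeq2 an adjusted p of 0.0281. Without Control 3 the edgeR value was 1.25 and DESeq2 did not call the gene (adjusted p = 0.098). Il18r1, the binding chain for IL-18, was at 5.07, 3.14 and 0.826 CPM in Control and at 8.86, 6.78, 1.79, 5.20 and 7.60 CPM in caIKK2EC (log2 fold change 1.00, SE 0.58, edgeR adjusted p = 0.417), and 0.56 without Control 3. Sigirr, an inhibitory receptor of the family, was at 9.09 ± 3.10 CPM (SD, n = 3) and 11.3 ± 2.37 CPM (SD, n = 5). The ligand gene Il1f9 (IL-36γ) had a total of 125 counts, and Il1f5, Il1f6, Il1f8, Il1f10 and Il1rapl2 had 0 counts. Il1rapl1 had 6 counts in all, too few to be tested, with mean levels of 0.0617 (Control) and 0.00777 CPM (caIKK2EC).

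Genes that process or release IL-1 were mostly at higher means. Of 11 tested, 10 had a log2 fold change above 0 (median 0.43), 0 passed in edgeR, 5 had an unadjusted p under 0.05 with a higher mean (9.66% of all genes) and DESeq2 called 2 higher (4.49% of all genes). Nlrp3, the sensor of the inflammasome, had means of 5.52 ± 1.32 and 9.54 ± 1.57 CPM (SD, n = 3 and 5), a fold change of 1.73 in edgeR (DESeq2 adjusted p = 0.0160). For P2rx7, the ATP-gated channel that triggers the inflammasome, the edgeR fold change was 1.48 (DESeq2 adjusted p = 0.0331). Without Control 3 DESeq2 called 0 of the 11, with adjusted p-values of 0.114 for Nlrp3 and 0.153 for P2rx7, against 2.37% of all genes called higher. Pycard, the adaptor ASC, had a log2 fold change of 0.43 (edgeR adjusted p = 0.233) and Casp4, the caspase that senses endotoxin, 0.56 (edgeR adjusted p = 0.263). Elane and Ctsg, proteases of neutrophil granules, had too few reads to be tested, and Ctsg was at 0 in all libraries.

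Genes that carry the signal from the receptor lay on both sides of 0. Of 17 tested 10 had a log2 fold change above 0 (median 0.05), 0 passed in edgeR, 4 had an unadjusted p under 0.05, each with a higher mean (9.66% of all genes), and DESeq2 called 2 higher (4.49% of all genes). Irak4, the first kinase at the receptor, had means of 22.2 ± 2.07 and 32.0 ± 2.88 CPM (SD, n = 3 and 5), a fold change of 1.44 in edgeR (DESeq2 adjusted p = 0.00414). For the adaptor gene Myd88 the edgeR fold change was 1.26 (DESeq2 adjusted p = 0.0334). Without Control 3 DESeq2 called Irak4 (adjusted p = 0.0382) and not Myd88 (adjusted p = 0.175). Irak3, which encodes the inhibitory kinase IRAK-M of macrophages, had a log2 fold change of 0.40 (edgeR adjusted p = 0.179), and Map3k7, which encodes the kinase TAK1, 0.26 (edgeR adjusted p = 0.267). Below 0 lay Peli3 at -0.73 (edgeR adjusted p = 0.314) and Peli2 at -0.38 (edgeR adjusted p = 0.30), which encode ubiquitin ligases of the Pellino family, and without Control 3 they were at -0.25 and -0.16.

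Genes that IL-1 is known to induce, which other NF-κB stimuli induce too, had the most calls of these 4 lists and also the most genes tested. DESeq2 called 9 of 21 here and 2 of 5 among the other ligands and receptors of the family. All 21 tested had a log2 fold change above 0 (median 0.78). Of these, 0 passed in edgeR, 15 had a higher mean with an unadjusted p under 0.05, and the calls of DESeq2 were 9 higher and none lower. The shares over all genes were 9.66% and 4.49%. Without Control 3 the median was 0.64 and DESeq2 called 6, against 2.37% of all genes. Mmp13, a collagenase gene, had means of 14.9 ± 7.57 and 43.6 ± 14.3 CPM (SD, n = 3 and 5), a fold change of 2.91 in edgeR (DESeq2 adjusted p = 0.000901). Cxcl5, Ccl2 and Sele, which were among the 4 genes of smallest p, had DESeq2 adjusted p-values of 0.00471, 0.00317 and 0.00217. Cxcl5 was not called without Control 3 (DESeq2 adjusted p = 0.0545). Il6 had means of 8.72 ± 3.86 and 16.9 ± 7.43 CPM (SD, n = 3 and 5) and passed in neither tool with all libraries (edgeR adjusted p = 0.279, DESeq2 adjusted p = 0.149). Without Control 3 DESeq2 called Il6 (log2 fold change 1.37, adjusted p = 0.0473). With lane as a covariate its edgeR log2 fold change was -0.18, and caIKK2EC 1 differed from the Control mean by -0.09 within lane 7. The lane covariate left Mmp13 at 0.95, Cxcl5 at 1.01, Ccl2 at 0.75 and Sele at 0.49.

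**Figure D5:**
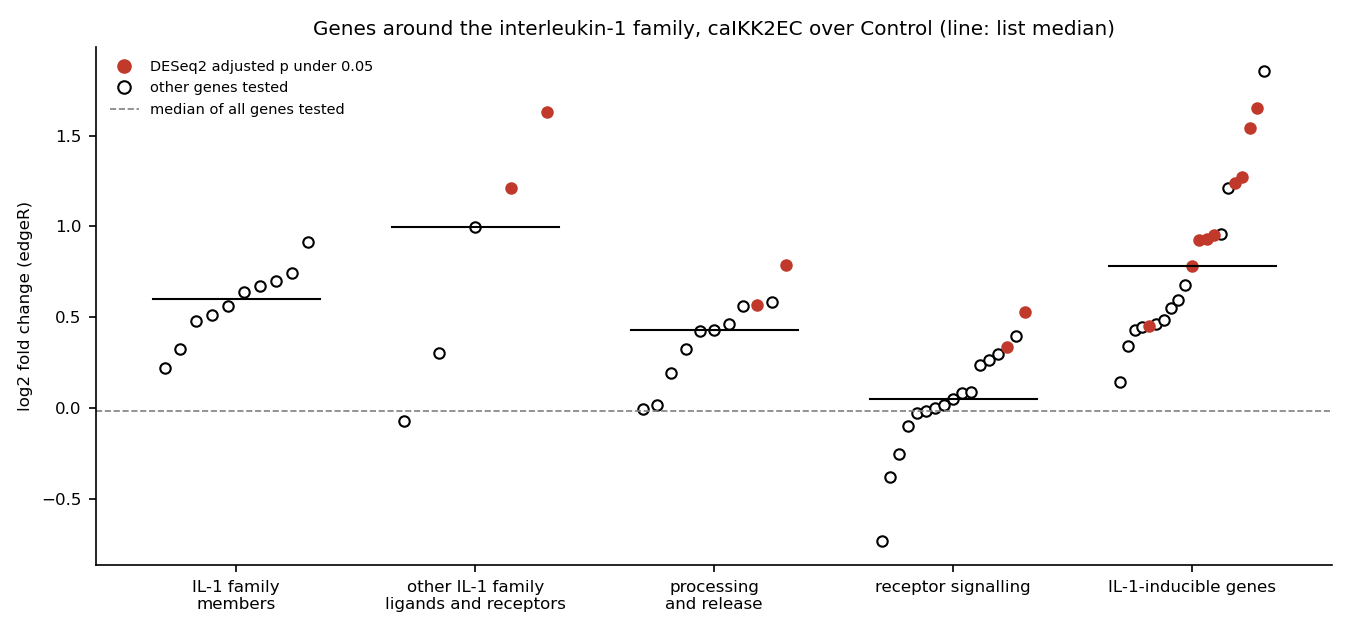
Log2 fold change of caIKK2EC over Control (vertical axis) of the tested genes of the family and of 4 related lists, each point 1 gene, with the list median as a line. Filled points were called by DESeq2: 0 of 10 family genes, 2 of 5 other family genes, 2 of 11 processing genes, 2 of 17 signalling genes and 9 of 21 inducible genes. The dashed line is the median of all genes, -0.02.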

How the data were processed

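Poly(A) RNA of whole aortas was sequenced single-end from directional libraries, per the labels' protocols. Each library has its own sex and age in the labels and is taken as 1 mouse. The deposited table holds raw counts per gene symbol. FastQC 0.11.5, STAR 2.7.0e, DESeq2 1.22.2 and the build GRCm38 (mm10) come from the submitters' processing notes. The sources used here do not give the counting step, its annotation or its strand setting. Antisense reads may therefore be included. The authors' deposited comparison table gives log2 fold changes and p-values.

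Counts were tested with edgeR 4.0.16 (R 4.3.3): TMM scaling, the default low-count filter, robust quasi-likelihood estimation, a 2-group model without covariates, and adjustment by Benjamini-Hochberg over 14679 genes at 0.05. The SE is the absolute log2 fold change over the root of the F statistic. DESeq2 1.42.0 and other settings were alternatives. Exact tests used all 56 splits on log2(CPM + 0.5), and ratios used counts plus 0.5. Libraries differed by more than sampling noise in every pair (chi-square over degrees of freedom at least 16.9). The procedures were tested on simulated data.

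All 10 family genes are described, and of each related list the 4 genes with the smallest p. Il6, S100a8, Ngp, Elane, Ctsg, Retnlg, Myh11, Peli2, Peli3, Il1rapl1, Il2ra, Cd3d, Cd3e and Cd3g were chosen after their values were seen. So were the markers too low to test and the ligands without reads. For likeness the 3 genes with the highest r per member are named, and for markers selected lists give their 2 most abundant genes. The members and lists were chosen with earlier results of these data known. Lengths and positions come from GENCODE M21, windows from RefSeq.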

Additional observations from a re-analysis of the deposited data

Results flagged for a closer look

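Within the 5 caIKK2EC libraries, the log2 ratio of Il1r2 to Il1r1 reads was -6.09 in caIKK2EC 3 and -5.19 to -4.92 in the other 4, a gap that exceeds Dixon's limit for 5 samples. It rests on 34 reads of Il1r2 and 2342 of Il1r1 in that library. Of 13 sets of values tested this was the only one past the limit, and chance passes about 1 set in 20.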

How the results depend on the processing

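Of 170 values of the 10 genes under 17 alternatives, 167 kept their direction and stayed above the threshold of adjusted p, 2 changed direction and 1 passed. Il1rap was -0.04 with lane as a covariate, and Il1rl1 -0.13 with the replicate number as a block. Il1rn passed without caIKK2EC 2 (0.67, edgeR adjusted p = 0.0369). The number of genes called over all genes moved from 0 in edgeR to 875 in DESeq2, 661 with age as a covariate and 390 in DESeq2 on females alone, an alternative chosen after seeing the data. It ran from 0 to 359 with each library left out, the highest without caIKK2EC 2. The number of family genes called ran from 0 to 1 in the same fits. The cause was not tested. Left-out libraries moved the difference in log2 ratio from -0.95 to -0.01 for Il1rn to Il1b, from -0.07 to 0.59 for Il1r2 to Il1r1 and from -0.15 to 0.38 for Il18bp to Il18. Deviations of same-numbered libraries correlated at 0.335, 0.099 and 0.097, and those of libraries with unlike numbers at -0.279 to 0.18. The numbers were not taken as pairs, although 0.335 was the highest of these values. The replicate block called 0 genes. Reads limit Il1r2 and Il1rl1 most, with as few as 21 and 29 counts in a library.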
